A study of Mus musculus with 2 samples.

Results

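The proteasome genes of day 6 mouse retinal organoids were examined for sites of N6-methyladenosine (m6A) listed from direct RNA sequencing. Members were all genes whose deposited name begins with Psm, a letter from a to g and a digit, and 42 of the 8262 named genes listed in either library met this rule. They comprised 13 genes of the 20S core (6 Psma and 7 Psmb), 20 of the 19S cap (6 Psmc and 14 Psmd), 7 activator, inhibitor and assembly genes (Psme, Psmf and Psmg) and 2 genes that match the rule by name alone. The latter were Psme3ip1, which encodes a partner of the Psme3 activator, and Psmc3ip, which encodes a meiotic recombination factor. They were kept as members and left out of core and cap. Psmd5, Psmd9 and Psmd10, which encode assembly chaperones of the cap, were counted with the cap by name, and of these Psmd5 has shared sites that enter its comparison with the core.

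The proteasome is the protease that degrades proteins tagged with ubiquitin. Its 20S core is a barrel of stacked rings, in which alpha subunits (Psma) form the gated outer rings and beta subunits (Psmb) the inner rings that hold the proteolytic sites. The 19S cap binds tagged substrates, removes the ubiquitin and threads the unfolded chain into the barrel. A ring of ATPases (Psmc) does the unfolding, and the non-ATPases (Psmd) form the scaffold, the ubiquitin receptors and the deubiquitinase. Dividing progenitor cells depend on it for the turnover of cyclins and other short-lived regulators. m6A is the most common internal modification of mRNA, is deposited by a complex around METTL3 and is known for its effects on mRNA decay and translation.

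Both libraries were made from wild-type organoids of the Rx:GFP line, a mouse stem cell line in which green fluorescent protein reports Rx (Rax), and both were grown for 6 days with AGN at 0.1 µM in GMEM containing KSR, NEAA, β-ME and sodium pyruvate. They form 1 group with n = 2 and carry the same batch label, and no untreated or METTL3-deficient group was analysed here. The labels do not say whether the libraries came from separate cultures, so the spread between them may be technical. Poly(A) RNA was read on nanopores without being copied, on 1 flow cell per library.

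Each listed position has a motif of 5 bases, a fraction modified (0 to 1) and a coverage, which is the number of reads over the position. A site was a position with at least 20 reads in a library, and a shared site had at least 20 in both. Replicate 1 listed 26441 positions on plus strands and replicate 2 listed 50099, at a median coverage of 10 and 12 reads. Of the eye-field and retinal progenitor markers, 9 of 10 were listed. None of 7 pluripotency and none of 7 mesendoderm markers was listed, which at a minimum of 5 reads and a restriction to 4 motifs does not show that they were not expressed.

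All member positions lay on the same 4 motifs as the rest of the tables, shown here because every comparison was made within a motif. Capitals mark the whole motif, in DNA letters:

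motif 1: AGACT

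motif 2: GGACA

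motif 3: GGACC

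motif 4: GGACT

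The motifs differ in the first or the last base and share GAC, whose A is the base that can carry m6A. Which base the listed position marks is not stated in the tables. Near transcript starts it could be read from RefSeq sequence (GRCm38.p6), which covers 50 bases after each gene's start. Of 109 positions up to 47 with such a window, 23 (21.1%) had their motif starting 3 bases before the listed position, and no other offset was found for more than 3. At that offset the listed position is the fourth base of the motif, the C, and the A lies 1 base before it. Of the members, Psmc6 and Psmf1 matched in this way, and their sites are shown in context with the motif in capitals.

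Psmc6, position 33, chr14:45329841-45329869 (+): tctcatcatggcGGACCctagagataagg

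Psmf1, position 45, chr2:151741261-151741281 (-): ccgcgcaggtgcGGACAgagc

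In Psmc6, which encodes an ATPase of the cap, position 33 had a fraction of 0.333 in replicate 1 (80 reads) and of 0.448 in replicate 2 (170 reads). In Psmf1, which encodes a proteasome inhibitor, position 45 was listed in replicate 2 only, with 0.875 over 9 reads. Sites of other members lay beyond these windows or were not matched in them, and their surrounding sequence was not analysed here.

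Members contributed 114 positions in 38 genes to replicate 1 and 145 positions in 41 genes to replicate 2, or 0.431% and 0.289% of all positions. Of these, 93 and 114 were sites. Of the member sites of replicate 1, 80 were shared (86.0%, with a Wilson interval at 95% from 77.5% to 91.6%). They made up 70.2% of the member sites in the deeper replicate 2 (61.2% to 77.8%). For the other genes these shares were 80.7% and 31.9%. The intervals cover counting error only and treat sites as independent, although many lie in the same gene. Members were not tested against other genes in these shares. Shared sites were found in 29 of 42 member genes (69%), against 22.8% of all listed genes. The members were also covered more deeply, with a median of 47 reads at their positions in replicate 1 and 68 in replicate 2, against 10 and 12 over all positions, and the part of depth in this share was not tested.

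By role, 4 of 6 listed alpha genes, 6 of 7 beta genes, 5 of 6 ATPase genes and 10 of 14 non-ATPase genes had a shared site. So had 3 of the 7 activator, inhibitor and assembly genes (Psme1, Psme3 and Psmg2) and Psme3ip1. Per gene with a shared site, there were 3.4 shared sites for ATPases and 4.1 for non-ATPases, against 1.5 for alpha and 1.67 for beta genes. These are counts of listed positions, include those of Psmd8 and Psmd4 on more than 1 transcript, and depend on how many such motifs each transcript holds, which was not analysed here. Psmd7 and Psmd8 had the most, with 8 and 7 shared sites. The plot of all shared sites by gene shows how far the fractions of one gene lie apart.

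**Figure D1:**
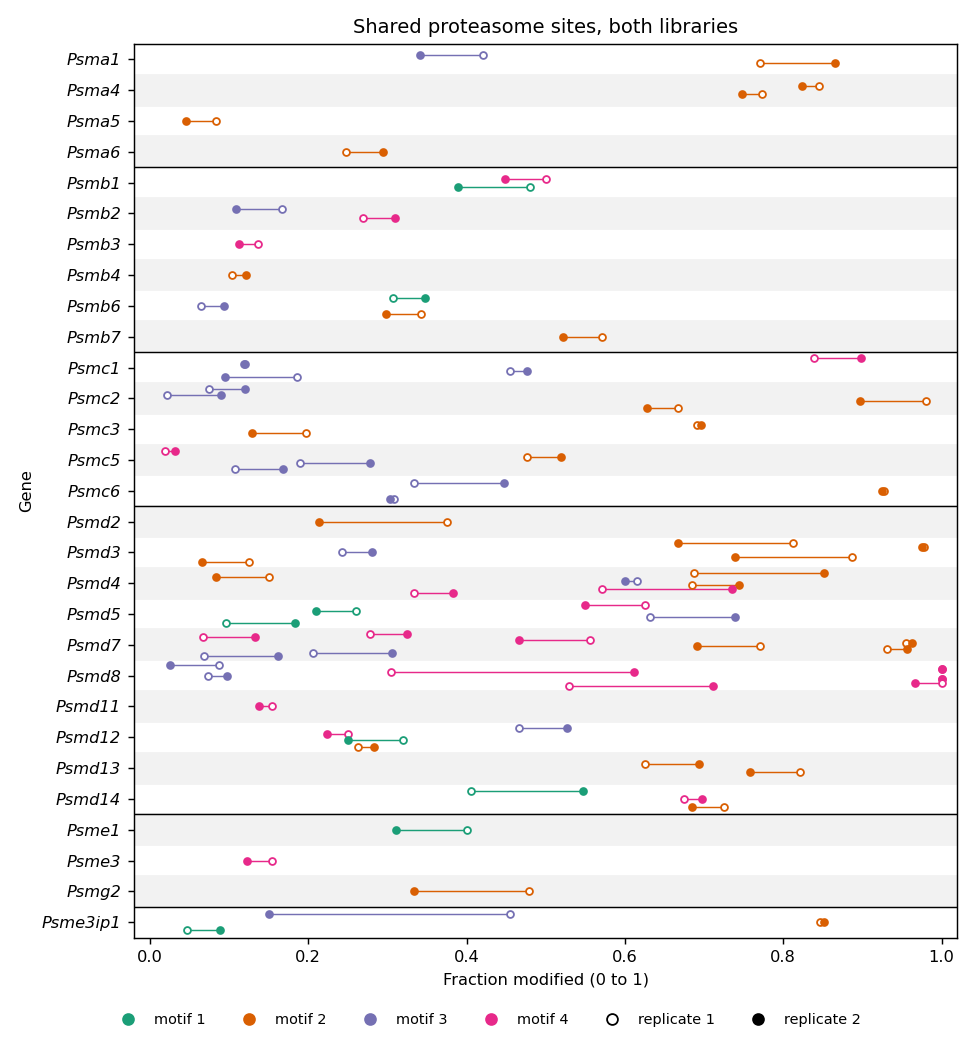
Fraction modified (x axis, 0 to 1) at the 80 shared sites of the 29 proteasome genes (y axis), with replicate 1 as open and replicate 2 as filled points joined by a line. Motif 1 is AGACT, 2 GGACA, 3 GGACC and 4 GGACT, and horizontal lines part the alpha, beta, ATPase, non-ATPase, accessory and interacting-protein genes. Sites of the same gene, such as those of Psmd3 or Psmd7, span from 0.0952 to 0.976 and from 0.1 to 0.959 in the mean of both libraries, while most lines between the libraries are short.

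The alpha subunits had 6 shared sites. Psma4 carried 2 high GGACA sites. Replicate 1 gave 0.846 at position 1047, over 168 reads, and replicate 2 gave 0.823 over 315. At position 1106 it was 0.773 over 166 reads and 0.748 over 311. The order of these sites, 59 nt apart, was the same in both libraries. In Psma1 the GGACA at position 943 had 0.771 over 161 reads and 0.866 over 247, while the GGACC at position 727 had 0.420 over 151 reads and 0.342 over 240. Psma5 had the lowest value of the alpha genes, 0.0833 over 177 reads and 0.0458 over 299 at position 1107. Psma6 had 0.247 over 158 reads and 0.295 over 283 at position 477. These last sites are also GGACA, so within this motif the alpha genes ranged from 0.0646 ± 0.0265 in Psma5 to 0.834 ± 0.0157 in Psma4 (each SD, n = 2).

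The beta subunits had 10 shared sites, none with a fraction above that of Psmb7 in replicate 1. Of the catalytic subunits, Psmb7 had 0.571 over 191 reads in replicate 1 and 0.521 over 349 in replicate 2 at the GGACA at position 457. Psmb6 carried 3 sites within its first 169 positions: the AGACT at position 83 with 0.307 over 237 reads and 0.347 over 354, the GGACC at position 112 with 0.0648 over 240 and 0.0939 over 372, and the GGACA at position 169 with 0.342 over 243 and 0.298 over 384. The GGACC lay below both others in each library. Psmb5, the remaining constitutive catalytic subunit, was not listed in either library.

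Among the structural beta subunits, Psmb1 had the deepest sites of all members. Its GGACT at position 432 had 0.5 over 337 reads in replicate 1 and 0.448 over 510 in replicate 2, and its AGACT at position 734 had 0.481 over 346 and 0.390 over 523. Both were lower in replicate 2. Psmb2 had 0.167 over 134 reads and 0.109 over 209 at the GGACC at position 412, and 0.269 over 136 and 0.309 over 210 at the GGACT at position 482, 70 nt further on. Psmb3 and Psmb4 were low in both libraries, the former with 0.137 over 301 reads and 0.113 over 423 (GGACT, position 704), the latter with 0.103 over 177 and 0.121 over 356 (GGACA, position 566). Psmb10, a subunit of the immunoproteasome, appeared in replicate 2 only, with no more than 5 reads. Psmb8 and Psmb9, the other immunoproteasome subunits, were not listed.

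The ATPase ring contributed 17 shared sites in 5 genes. The highest in the mean of both libraries was the GGACA at position 829 of Psmc2, with 0.980 over 55 reads in replicate 1 and 0.897 over 133 in replicate 2. The GGACA at position 187 of Psmc6 had 0.928 over 93 reads and 0.925 over 204, which put it above the Psmc2 site in replicate 2. Psmc1 carried a high GGACT at position 46, with 0.839 over 37 reads and 0.898 over 87. In other genes the median GGACT fraction was 0.264 in replicate 1 and 0.245 in replicate 2, so the Psmc1 site lay far above it in both libraries.

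Several of the other ATPase sites were low. In the mean of both libraries, the lowest shared site of all members was the GGACT at position 95 of Psmc5. It had 0.0189 over 61 reads in replicate 1 and 0.0320 over 139 in replicate 2. In Psmc2 the GGACC sites at positions 424 and 724 had 0.0750 and 0.0217 in replicate 1, over 52 and 55 reads, and 0.120 and 0.0901 in replicate 2, over 128 and 129. In Psmc1 the GGACC at position 369 had 0.455 over 57 reads and 0.476 over 140. The GGACC at position 182 of that transcript had 0.119 over 57 reads and 0.120 over 130, and the one at position 930 had 0.186 over 70 and 0.0949 over 164. The site at position 369 was thus the highest of the 3 in each library. In Psmc3 the GGACA at position 1256 had 0.691 over 106 reads and 0.696 over 171, and the GGACA at position 1573 had 0.197 over 110 and 0.129 over 175.

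Of the rest of the ATPase sites, the GGACA at position 1197 of Psmc2 had 0.667 over 60 reads and 0.628 over 138. Psmc5 had 0.476 over 67 reads and 0.520 over 145 at the GGACA at position 337, 0.189 over 71 and 0.279 over 148 at the GGACC at position 433, and 0.107 over 73 and 0.168 over 155 at the GGACC at position 608. Its 4 sites were all somewhat higher in replicate 2. Psmc6 had 0.309 over 100 reads and 0.303 over 215 at the GGACC at position 547. Psmc4 was listed in replicate 2 only, with 7 reads.

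The non-ATPases contributed 41 shared sites in 10 genes. Psmd14, the deubiquitinase of the cap, had 3. Its GGACA at position 826 had 0.726 over 78 reads in replicate 1 and 0.684 over 126 in replicate 2, and its GGACT at position 352 had 0.674 over 68 and 0.697 over 118. The AGACT at position 331, 21 nt before the latter, had 0.405 over 67 reads and 0.547 over 117, a difference between libraries of 0.142.

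Psmd7, the structural partner of Psmd14, had 8 shared sites on 1 transcript, each with at least 50 reads in both libraries. Its GGACA sites at positions 983, 1173 and 1224 had 0.955, 0.771 and 0.931 in replicate 1, over 75, 80 and 80 reads, and 0.962, 0.691 and 0.957 in replicate 2, over 125, 129 and 129. All lay above the median of that motif in other genes (0.688 and 0.667). Its GGACT sites at positions 509, 669 and 713 had 0.278, 0.0667 and 0.556 in replicate 1, over 53, 55 and 56 reads, and 0.325, 0.133 and 0.466 in replicate 2, over 99, 103 and 104. The middle one was the lowest in each library. Its GGACC sites at positions 1463 and 1499 had 0.206 and 0.0690 in replicate 1, over 83 reads each, and 0.307 and 0.162 in replicate 2, over 133 reads each.

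Psmd3, a scaffold subunit, had 5 shared sites. In the mean of both libraries it had the highest member site with at least 50 reads in each. This was the GGACA at position 903, with 0.977 over 53 reads in replicate 1 and 0.975 over 98 in replicate 2. The GGACA at position 874, 29 nt away, had 0.812 over 54 reads and 0.667 over 98. Further along, the GGACA at position 2041 had 0.887 over 67 reads and 0.739 over 118, and the one at position 2084 had 0.125 over 67 and 0.0654 over 118. The last of these was the only low GGACA of the transcript. The GGACC at position 1336 had 0.243 over 61 reads and 0.281 over 102.

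Psmd8, which encodes a small subunit of the lid, carried the only shared member sites with a fraction of 1 in both libraries. On transcript ENSMUST00000059642.16 the GGACT at position 1348 had a fraction of 1 over 32 and 50 reads. On ENSMUST00000182328.7 the GGACT at position 1199 had 1 over 29 and 62 reads, and on ENSMUST00000186182.1 the GGACT at position 1320 had 1 over 23 and 0.966 over 60. The positions listed for the first transcript recurred with the same motifs 149 nt earlier on the second (3 positions) and 28 nt earlier on the third (4 positions). These may therefore be the same bases read on 3 transcripts of 1 gene, and they are not independent sites. The GGACT 44 nt downstream had 0.304 over 32 reads and 0.611 over 50 at position 1392 of the first transcript, the largest difference between libraries of any shared member site, and 0.529 over 23 and 0.711 over 60 at position 1364 of the third. The GGACC at positions 466 and 317 of the first and second transcripts had 0.0870 over 27 reads and 0.0250 over 56, and 0.0741 over 29 and 0.0980 over 59.

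Psmd4, which encodes a ubiquitin receptor of the cap, was split in the same way over 2 transcripts, with 6 shared sites. The site with the most reads, the GGACT at position 839 of ENSMUST00000107237.7, had 0.571 over 43 reads and 0.736 over 78. Its GGACA sites at positions 52 and 220 of ENSMUST00000071664.11 differed widely, with 0.688 over 23 reads and 0.852 over 37 at the former, and 0.150 over 25 and 0.0833 over 38 at the latter. Only 2 positions of each transcript matched at a constant offset of 53 nt.

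Psmd13, a lid subunit, had 0.625 over 80 reads and 0.693 over 185 at the GGACA at position 1488, and 0.821 over 85 and 0.758 over 190 at the GGACA at position 1623. The first was lower than the second in both libraries, with differences of -0.196 and -0.0647. Psmd2, the docking subunit for ubiquitin-like domains, had 0.375 over 53 reads and 0.214 over 137 at the GGACA at position 710, the largest difference between libraries (0.161) among sites with at least 50 reads in each.

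In Psmd12, a lid subunit, 4 shared sites ran from 0.237 at position 336 to 0.496 at position 92 in the mean of both libraries. Psmd5, an assembly chaperone of the cap base, had 4 sites from 0.140 to 0.685, the highest being the GGACC at position 1369 with 0.632 over 33 reads and 0.739 over 82. Psmd11, a lid subunit, had a single shared site, which was low, with 0.154 over 23 reads and 0.138 over 45. Psmd1, Psmd6 and Psmd9 had sites in replicate 2 only (4, 1 and 1), and Psmd10 reached no more than 18 reads in either library.

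The activators and assembly factors were shallower. Psme1, an activator subunit, had 0.4 over 49 reads in replicate 1 and 0.311 over 68 in replicate 2 (AGACT, position 1031). Psme3, the nuclear activator, had 0.154 over 24 reads and 0.123 over 101 (GGACT, position 1022). Psmg2, a chaperone of core assembly, had 0.478 over 36 reads and 0.333 over 65 (GGACA, position 716), a gap of 0.145. None of their sites had 50 reads in both libraries. Psme4, a large activator, had 5 sites in replicate 2 only, with at most 55 reads there and 5 in replicate 1. Psmf1 had 3 and Psmg3 had 2 sites in replicate 2 only, and Psmg1 had 1 in replicate 1 only. Psme3ip1 had 3 shared sites, of which the GGACC at position 1198 had 0.455 over 22 reads and 0.150 over 39, while the GGACA at position 1626 had 0.846 over 22 and 0.852 over 40. Its AGACT at position 1924 was low, with 0.0476 over 23 reads and 0.0882 over 40. Psmc3ip had no shared site.

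**Figure D2:**
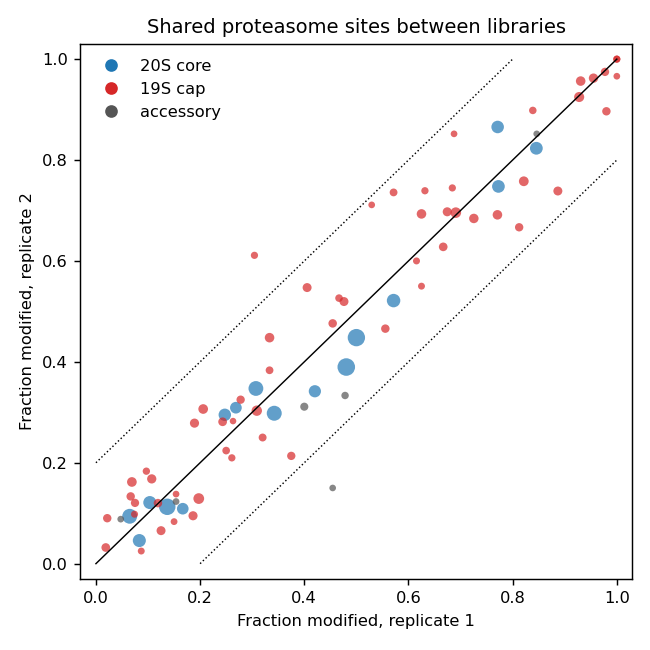
Fraction modified in replicate 2 (y axis) against replicate 1 (x axis) at the 80 shared proteasome sites, coloured by core, cap and accessory genes, with larger points for a higher lower-of-both coverage. The solid line marks equal fractions and the dotted lines a difference of 0.2, which 2 sites exceed, 1 of Psmd8 and 1 of Psme3ip1.

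The libraries were compared at these 80 sites. Replicate 2 had the higher fraction at 40 of them, replicate 1 at 38, and 2 were tied, with a median difference (replicate 2 minus replicate 1) of 0.0005 and an SD of the differences of 0.0877. The libraries lay over 0.2 apart at 2 of 80 sites (2.5%), against 5.94% of all shared sites. Of the 51 member sites covered by 50 or more reads on either side, 0 differed by that much, against 1.09% of all such sites, and the SD was 0.0699. The 16 core sites, covered by 134 to 346 reads in replicate 1, differed by at most 0.0943. The 58 cap sites, covered by 20 to 110 reads, differed by up to 0.307. Depth and subunit class move together here, so their parts in this spread cannot be told apart.

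The shares of high and low sites were near those of all shared sites. A fraction of at least 0.9 in both libraries was listed at 7 of 80 sites (8.75%), against 9.37% of all shared sites, and one of at most 0.1 in both at 7 of 80 (8.75%), against 10.1%. At 50 or more reads each was listed at 4 of 51 sites (7.84%), against 9.69% and 11.1%. All 7 high sites lay in the cap: 3 of them were the Psmd8 positions described above, 2 lay in Psmd7, 1 in Psmd3 and 1 in Psmc6. The core had 0 high sites of 16. Over the cap alone the share was 12.1%.

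Members were then compared with other genes within each motif, since the fraction depends on the motif. Differences between medians were computed in each library and averaged. At GGACA the median was 0.688 in replicate 1 and 0.691 in replicate 2 for 31 member sites, against 0.688 and 0.667 for 1970 sites of other genes, a difference of 0.012 ± 0.0180 (SD, n = 2). At GGACC 21 member sites had 0.189 and 0.168, against 0.217 and 0.227, a difference of -0.0438 ± 0.0220. At AGACT 8 member sites had 0.314 and 0.281, against 0.266 and 0.25, a difference of 0.0390 ± 0.0120 (each SD, n = 2). At GGACT 20 member sites had 0.417 and 0.457, against 0.264 and 0.245, a difference of 0.182 ± 0.0424 (SD, n = 2).

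The GGACT gap rested largely on Psmd8. Without that gene it was 0.0468, with 1 transcript per gene 0.0902, with each gene counted once 0.0373, and with a minimum of 50 reads 0.0323. The AGACT gap was 0.158 with that minimum, where only sites of Psmb1, Psmb6 and Psmd14 were left, and 0.0737 over sites of either library. The GGACC gap was -0.0688 without a minimum beyond 5 reads, -0.0149 with at least 50 and 0.001 with each gene counted once. The GGACA gap turned to -0.0134 without a minimum beyond 5 reads and to -0.0380 with each gene counted once. With 2 libraries the exact paired permutation test cannot give a two-sided p under 0.5, so the differences are given by their size and SD, with no call. When each site was expressed relative to the other genes' median of its motif (motif-centred fraction), the member median was 0.0196 in replicate 1 and 0.0526 in replicate 2, and it turned to -0.0225 on average when each gene was counted once. Of the 80 sites, 40 lay above the motif median in both libraries (50%) and 32 below it in both (40%), against 44.7% and 44.7% of sites in other genes. The motif composition was similar, with GGACA at 38.8% of member and 38.3% of other sites, GGACC at 26.2% and 22.2%, GGACT at 25% and 23.8%, and AGACT at 10% and 15.7%.

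**Figure D3:**
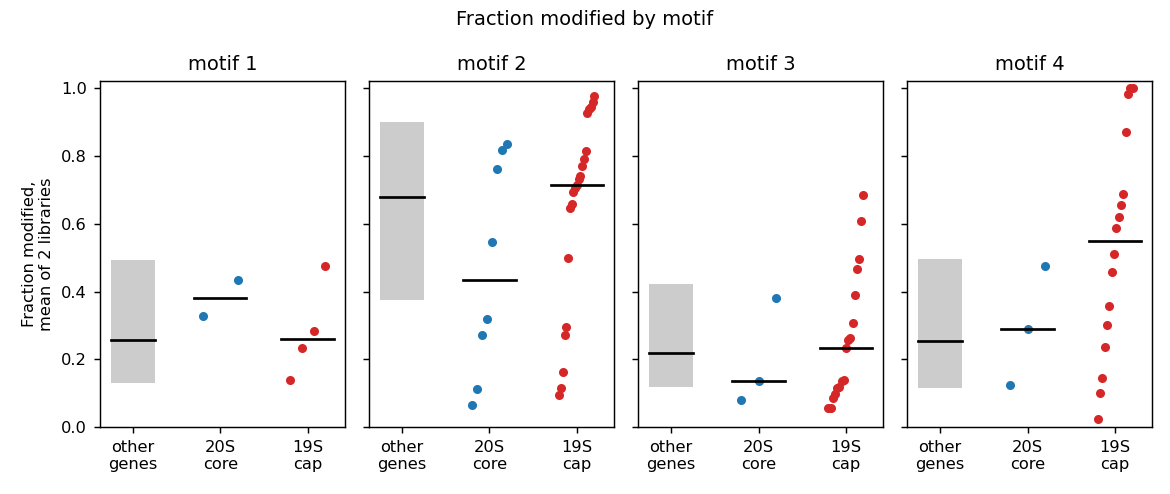
Fraction modified, as the mean of both libraries (y axis), at shared sites of the 20S core and the 19S cap (points, with a black line at the median) for each motif, beside other genes (grey box from the lower to the upper quartile, black line at the median). Motif 1 is AGACT, 2 GGACA, 3 GGACC and 4 GGACT. At motif 2 the core sites run from 0.0646 to 0.834 and the cap sites from 0.0952 to 0.976, and the ranges overlap at every motif.

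Core and cap were compared in the same way. At GGACA the median of 8 core sites was 0.457 in replicate 1 and 0.410 in replicate 2, and that of 21 cap sites 0.691 and 0.693, a difference of -0.259 ± 0.0349 (SD, n = 2). At GGACT 3 core sites had 0.269 and 0.309 and 16 cap sites 0.542 and 0.581, a difference of -0.273 ± 0.00166. At GGACC the difference was -0.0960 ± 0.104 (3 and 17 sites) and at AGACT 0.121 ± 0.0249 (2 and 4 sites; each SD, n = 2). In the motif-centred fraction the core minus cap difference was -0.0548 in replicate 1 and -0.0899 in replicate 2.

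Some of these differences changed sign with the choice of genes. In the RefSeq list Psma5, Psmb6 and Psmb7 each have a pseudogene of their own, and whether reads were shared with it was not tested. Without these genes the GGACA difference became 0.0674 and the motif-centred difference 0.0348, both with the core above the cap, and the GGACC difference 0.0256. The GGACT difference rests on none of these genes and stayed at -0.273, but without Psmd8 it was -0.0694. The AGACT difference without the same 3 core genes was 0.175, with Psmb1 as the only core gene left. With a minimum of 50 reads the GGACT difference was -0.0125 and the AGACT difference turned to -0.0952. For AGACT, Psmd14 was then the only cap gene left, and the libraries gave -0.0116 and -0.179. With 1 transcript per gene the GGACT difference was -0.111. With each gene counted once, the core lay further below the cap in the motif-centred fraction (-0.184) and at GGACA (-0.393). The motif-centred difference shrank to -0.0226 without a minimum beyond 5 reads, with opposite signs in the libraries (-0.0888 and 0.0435). It was -0.0347 with at least 50 reads and -0.0334 over sites of either library, where the AGACT difference was 0.0380. Among other genes with at least 100 reads in replicate 1, the motif-centred median was -0.0204 in replicate 1 and -0.0151 in replicate 2, near the core's -0.0232 and -0.0270. Within the cap, the non-ATPases had motif-centred medians of 0.054 and 0.0792 and the ATPases -0.0282 and -0.0388. Within the core, the alpha genes had 0.0838 and 0.0977 and the beta genes -0.0838 and -0.125.

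Sites of the same motif were also compared within a transcript, where they may share reads. Members held 28 such pairs of shared sites in 12 genes, and in 27 of them both libraries gave the same order, against 87.4% of such pairs over all genes. The median gap of the member pairs was 0.220. Shared member sites had a median of 58.5 and 125.5 reads, against 36 and 77 in other genes, and the part of depth was not tested. Some pairs share a site, so the pairs are not independent. In 6 pairs the sites lay within 50 nt of each other, all in Psmd3, Psmd7 and Psmd8, and the same site was the higher one in both libraries in all 6, against 87.6% over all genes. The Psmd8 positions gave 2 of these 6 pairs, on 2 transcripts, and may be the same bases. The widest gap among these was 0.762 in replicate 1 and 0.673 in replicate 2, between the GGACA sites at positions 2041 and 2084 of Psmd3 (43 nt). In Psmd7 the GGACT sites at positions 669 and 713 (44 nt) differed by -0.489 and -0.3325 (first minus second), and the GGACC sites at 1463 and 1499 (36 nt) by 0.137 and 0.145. In Psmd8 the GGACT sites at positions 1348 and 1392 differed by 0.696 and 0.389.

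**Figure D4:**
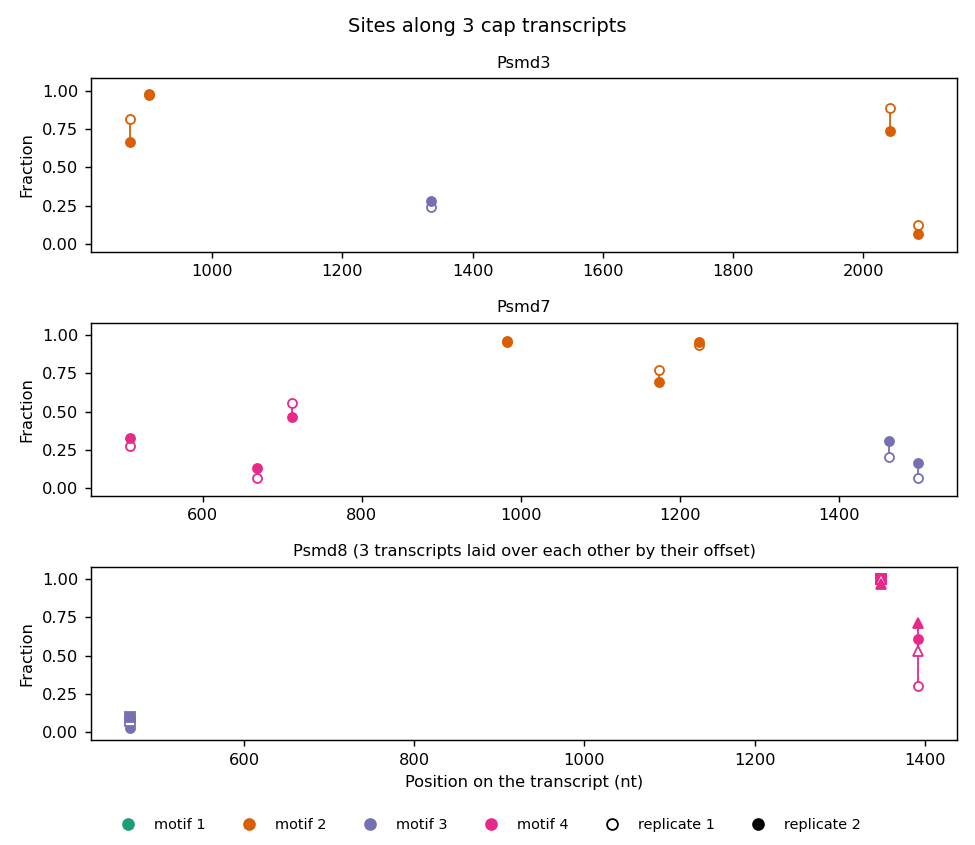
Fraction modified (y axis, 0 to 1) at shared sites against position on the transcript (x axis, nt) for Psmd3, Psmd7 and Psmd8, with replicate 1 open and replicate 2 filled and colours as motif 1 (AGACT), 2 (GGACA), 3 (GGACC) and 4 (GGACT). For Psmd8 the 3 transcripts (circles, squares, triangles) were shifted by their offsets of 149 and 28 nt onto the first. In Psmd3 the neighbouring sites at 2041 and 2084 lie 0.718 apart in the mean of both libraries.

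Not every well-covered position was listed in both tables. Of the 13 member sites found in replicate 1 only, 0 were listed on the same transcript in replicate 2 at any coverage, although replicate 2 was deeper. Of the 13, 6 lay between positions with at least 20 reads there. At the offsets given above, positions 1191 and 438 of Psmd8 and 1071 of Psmd4 recur on another transcript listed in replicate 2. They may be the same bases, so they need not be missing there. In Psmc5 the AGACT at position 472 (0.170 over 71 reads) and the GGACA at position 502 (0.833 over 72) were listed in replicate 1 only, while replicate 2 had 148 reads at position 433 and 155 at position 608. In Psmd5 the AGACT at position 1222 (0.875 over 31 reads) was missing from replicate 2, which had 81 reads at position 1328. Of the 34 sites found in replicate 2 only, 13 had a listed coverage under 20 in replicate 1. The other 21 were not listed there on the same transcript (61.8%, against 37.1% in other genes). The deepest of the latter were the AGACT at position 490 of Psma7 (0.409 over 357 reads), the GGACC at position 190 of Psmb4 (0.395 over 336) and the GGACC at position 1174 of Psmc3 (0.0365 over 169). In other genes, 1218 of 1229 sites of replicate 1 only were not listed in replicate 2, and 521 of these lay between positions of at least 20 reads. Of the sites of replicate 2 only that replicate 1 did not list, 4 of 21 lay between such positions in members (19.05%), against 8.33% in other genes. These 4 include positions 1340 and 1312 of Psmd8, on different transcripts. Both may be the same base as position 1191, which replicate 1 listed on ENSMUST00000182328.7. The criterion by which a position was listed is not given in the sources used here, so a missing position is not a fraction of 0.

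Coverage along the transcripts mostly rose toward the far end, which is where reading of native RNA begins. In Psma1 it was 6 reads at position 26 and 151 at position 727 in replicate 1, and in Psme4 it rose from 14 reads at position 1221 to 55 at position 6433 in replicate 2. In other members it dropped again. Psmd12 had 45 reads at position 1518 and 20 at position 1754 in replicate 1, and 114 and 57 in replicate 2. Psmd11 had 23 reads at position 1276 and 5 at position 1756 in replicate 1, and 45 and 21 in replicate 2. Psmf1 had 40 reads at position 923 and 8 at position 1417 in replicate 2. Psma3 was listed with 207 reads at position 958 in replicate 1, while replicate 2 listed only positions 1125 and 2166 of that transcript, with 20 and 29 reads. Sites beyond such drops rest on fewer reads than those before them.

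The gain in depth from replicate 1 to replicate 2 differed between core and cap. The ratio of coverage had a median of 1.57 at the 16 core sites (range 1.41 to 2.01) and 2.1 at the 58 cap sites (1.52 to 2.85), against 2 at other genes (interquartile range 1.66 to 2.4). In other genes the ratio was larger further along the transcript, with medians of 1.76 in the first 500 positions, 1.87 in the next 500, 2.07 in the next 1000 and 2.36 beyond. It was also smaller at deep sites, with 1.87 at 100 or more reads in replicate 1 against 2.05 at 20 to 49. Core sites were both deep and near the start, with a median position of 524 against 856.5 for the cap. The part of these in the lower core ratio was not tested, and in whole organoids fewer cells and less RNA per cell cannot be told apart.

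**Figure D5:**
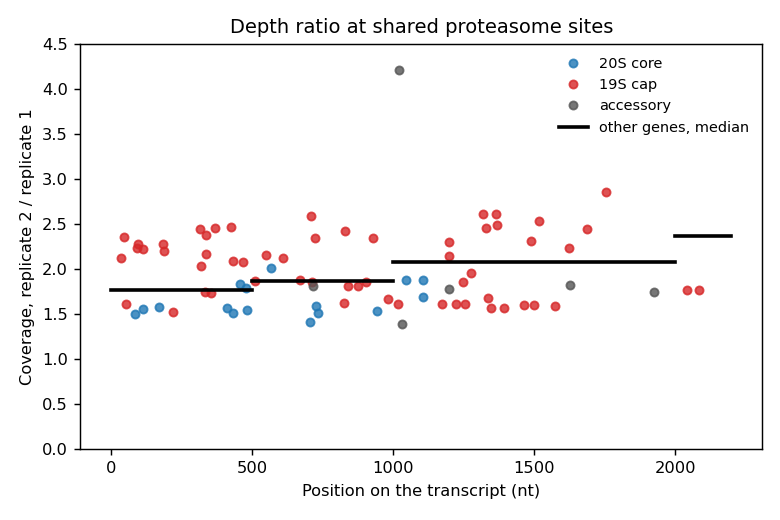
Coverage in replicate 2 divided by coverage in replicate 1 (y axis) against position on the transcript (x axis, nt) at the 80 shared proteasome sites, by core, cap and accessory genes. Black lines are medians of other genes in 4 classes of position (1.76, 1.87, 2.07 and 2.36). The core sites sit between 1.41 and 2.01, and the accessory point at 4.21 is Psme3.

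Of 28 further genes of the ubiquitin and proteasome pathway, 26 were listed and 12 had shared sites, 41 in all, where 22.8% of all listed genes had one. Of these, 18 lay above the motif median of other genes in both libraries and 15 below it in both (44.7% and 44.7% in other genes), and the median motif-centred fraction was -0.004 in replicate 1 and 0.133 in replicate 2. Pomp, the maturation factor of the core, had 0.875 over 182 reads and 0.878 over 281 at its single site. Adrm1, a ubiquitin receptor of the cap, had 4 sites with a mean of 0.581 and 0.594. Usp14, a deubiquitinase that binds the cap, had 1 low site with 0.0833 and 0.0851. Uba1, the ubiquitin-activating enzyme, had 7 sites with a mean of 0.687 and 0.747, and Vcp, the unfoldase upstream of the proteasome, had 1 with 0.548 and 0.511. Nfe2l1 and Nfe2l2, which encode transcription factors of proteasome genes, had no more than 5 reads in replicate 1 and 12 and 10 in replicate 2.

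Gene positions, as deposited, are given for 5 members with very high, very low or divergent sites. Psmd8 lies on chromosome 7 (28873613 to 28880126), Psmd3 on chromosome 11 (98573380 to 98586805), Psmd7 on chromosome 8 (108307013 to 108315096), Psmc6 on chromosome 14 (45567245 to 45587162) and Psma5 on chromosome 3 (108164242 to 108187290). The submitters' processing notes name mm10. However, all 42 members start more than 1000 bases from their RefSeq start on GRCm38.p6, the same assembly, so these coordinates are of another, unnamed build. Whether a site lies in coding or untranslated sequence was not analysed here.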

How the data were processed

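Per the labels' protocols, 2 libraries of poly(A) RNA were sequenced with the RNA002 direct RNA kit. In the deposited tables, per the file headers, the fraction modified is a fraction from 0 to 1 and the coverage a count of reads, with none under 5. The fraction's denominator, the base caller, aligner and modification caller are not given in the sources used here. The build mm10 is named per the submitters' processing notes. The fractions were not turned into read counts, and depth sets no interval around a single one.

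Positions were matched on transcript and listed end, with at least 20 reads in each library. Every member with a shared site was named, with values for all sites of at least 50 reads in each and the extremes of each class. The members and lists were chosen with earlier results of these data known. Medians by motif were compared in each library (mean ± SD, n = 2), counting transcripts without a gene name (43 shared sites) as other genes. Alternatives were the coverage minimum, 1 transcript per gene, genes counted once, sites of either library and members left out. The minus tables (11 and 35 positions) list 0 members. Python 3.11.15 with pandas 2.3.3 and scipy 1.17.1 was used. On simulated data with many more member sites than here, the code returned the set difference of core minus cap. This checks the computation only. Values of some listed genes outside the members are not reported here.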

Additional observations from a re-analysis of the deposited data

How the results depend on the processing

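Between the proteasome and other genes, and between core and cap, most differences of motif medians moved by more than 1 SD of the libraries under at least 1 alternative. The cause was not tested, beyond the fewer sites or genes that each alternative leaves. With a minimum of 50 reads 51 sites were shared. Members minus other genes was then 0.158 at AGACT, -0.0149 at GGACC and 0.0323 at GGACT. Core minus cap was -0.0952 at AGACT (reversed, with Psmd14 as the only cap gene), -0.299 at GGACA, -0.0125 at GGACT and -0.0347 motif-centred. Without a minimum beyond 5 reads, members minus other genes was -0.0134 at GGACA, -0.0688 at GGACC, 0.101 at GGACT and 0.0045 motif-centred, and core minus cap 0.161 at AGACT, -0.181 at GGACT and -0.0226 motif-centred. With 1 transcript per gene the GGACT differences were 0.0902 and -0.111. With each gene counted once, members minus other genes was -0.0380 at GGACA, 0.001 at GGACC (reversed), 0.0373 at GGACT and -0.0225 motif-centred (reversed), and core minus cap -0.393 at GGACA, -0.212 at GGACT and -0.184 motif-centred. With sites of either library, members minus other genes was 0.0737 at AGACT, and core minus cap 0.0380 at AGACT, -0.318 at GGACA, -0.166 at GGACT and -0.0334 motif-centred. Without Psma5, Psmb6 and Psmb7, core minus cap was 0.0674 at GGACA and 0.0348 motif-centred (both reversed), 0.175 at AGACT and 0.0256 at GGACC, and members minus other genes 0.027 at AGACT and -0.0120 at GGACC. Without Psmd8 the members' GGACT difference was 0.0468 and that of core minus cap -0.0694. The core's motif-centred median, -0.0251, was -0.0124 against other genes of at least 100 reads. These last settings by gene and depth were chosen after seeing the data, except the motif-centred values without Psma5, Psmb6 and Psmb7. The number of genes with a shared site, the median difference between libraries and the extreme fractions stayed within the spread or within 1.5 times under the coverage minimums. Leaving out either of 2 libraries always gives the other's value and is no test of stability. No paired analysis was possible because the samples form 1 group, so no groups share replicate numbers, and sets of genes were compared within each library.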
